A study of Mus musculus with 6 samples.

Results

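The RNA of 10 genes that write, copy or remove DNA methylation, or that are silenced by it, was compared between scrambled control and IFNγR1KO melanoma cells. The genes were Dnmt1, Uhrf1 and Hells, Dnmt3a, Dnmt3b and Dnmt3l, Tet1, Tet2 and Tet3, and Rhox5. They were taken by symbol from the 55335 genes of the count tables, through their Ensembl identifiers in GENCODE M21. Of the 10 genes, 9 were among the 13642 with enough counts for a test, and Dnmt3l was not. The genes were chosen with results of this comparison known, so their values are described here with no p-value of their own. Where a gene was called or was a DEG in the fit over all genes, that is given as part of the description and supports nothing.

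The series holds 3 libraries of each group, each made from the RNA of a B16-BL6 culture, a mouse melanoma line. Both groups had received a lentiCRISPR v2 vector and puromycin selection, the scrambled control cells with a guide against GFP and the IFNγR1KO cells with guides against the first exon of Ifngr1, the ligand-binding chain of the receptor for interferon gamma. IFNγR1KO cells were single clones picked by their PD-L1 response to interferon gamma, and the labels give the genotype of the control cells as WT. The cultures were seeded in triplicate and no cytokine was added. The labels do not say whether the 3 IFNγR1KO cultures came from the same clone, so a difference between the groups cannot be told apart from a difference between clones. The p-values measure the spread between these cultures, which may be technical.

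In mammals, Dnmt1 copies cytosine methylation onto the new strand after DNA replication, guided by Uhrf1, which binds hemimethylated CpG sites, and helped by the chromatin remodeller Hells, whose partner is Cdca7. Dnmt3a and Dnmt3b set new methylation, Dnmt3l is their cofactor without catalytic activity, and the Tet enzymes oxidise methylated cytosine. Rhox5, also known as Pem, is an X-linked homeobox gene of the reproductive tract and placenta whose promoters are methylated in most somatic cells. DNA methylation itself was not measured in these libraries.

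The promoter sequences of the genes that carried the results are shown first, as the 250 bases before a RefSeq start in GRCm38.p6, read 5′ to 3′ on the strand of the gene. Capitals in the windows of Dnmt1 (chr9:20952624-20952873, minus strand), Uhrf1 (chr17:56304063-56304312, plus strand) and Hells (chr19:38930740-38930989, plus strand) mark a match to an octamer of the E2F family, whose factors control genes of DNA replication.
Dnmt1: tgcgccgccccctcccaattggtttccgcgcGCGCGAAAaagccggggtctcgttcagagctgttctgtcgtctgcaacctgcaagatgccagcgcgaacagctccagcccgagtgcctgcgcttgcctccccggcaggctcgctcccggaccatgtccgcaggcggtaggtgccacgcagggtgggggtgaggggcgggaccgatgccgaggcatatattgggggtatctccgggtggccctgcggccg
Uhrf1: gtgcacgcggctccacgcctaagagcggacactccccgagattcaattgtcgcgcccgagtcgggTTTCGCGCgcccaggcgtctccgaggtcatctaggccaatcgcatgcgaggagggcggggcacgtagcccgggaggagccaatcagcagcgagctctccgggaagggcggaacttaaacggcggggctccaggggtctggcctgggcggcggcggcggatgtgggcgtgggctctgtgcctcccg
Hells: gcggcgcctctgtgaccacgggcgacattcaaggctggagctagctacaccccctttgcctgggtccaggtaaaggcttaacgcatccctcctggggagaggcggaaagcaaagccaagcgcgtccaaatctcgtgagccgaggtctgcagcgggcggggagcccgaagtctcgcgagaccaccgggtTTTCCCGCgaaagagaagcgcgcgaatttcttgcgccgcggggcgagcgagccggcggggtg
The octamers searched were TTTCCCGC, TTTGGCGC and TTTCGCGC on both strands. The match began 219 bases before the RefSeq start used in Dnmt1, 185 in Uhrf1 and 62 in Hells. In GENCODE M21 these genes begin further upstream, at 20959888 for Dnmt1, 56303321 for Uhrf1 and 38930915 for Hells. All 3 matches therefore lie within the gene and not before its first start. All 10 genes had at least 1 window, and the other 7 had no match in these bases. An octamer was found in 504 of 32851 windows of all genes (1.53%), and in 115 (3.65%) of the 3150 windows with at least 26 CpG sites, the lowest number among the 3 windows shown. RefSeq also gives starts further upstream in Dnmt1 (20959888 and 20952979) and Uhrf1 (56303337), and their windows held no match.

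The window of Rhox5 (chrX:37754358-37754607, plus strand) is shown for its CpG sites, in capitals.
Rhox5: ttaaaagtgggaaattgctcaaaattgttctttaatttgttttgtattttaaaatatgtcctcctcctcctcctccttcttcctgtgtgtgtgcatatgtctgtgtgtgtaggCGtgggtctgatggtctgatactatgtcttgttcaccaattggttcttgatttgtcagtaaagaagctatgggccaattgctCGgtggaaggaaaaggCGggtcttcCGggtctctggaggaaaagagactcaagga
It held 4 CpG sites, where the median of all windows was 6, and the 3 windows above held 26, 30 and 28. The RefSeq start of Rhox5 lies 50.2 kb upstream of the start in GENCODE M21, and the window at the GENCODE start was not used here. The GAS element TTCNNNGAA, the element of interferon gamma responses, was found in 7.02% of all windows and, among the 10 genes, only in a window of Dnmt3l. The ISRE, the element of type I interferon (2.98% of windows), and the amino acid response element TGATGNAAT (0.816% of windows) were found in none of them. A match is a description of the letters and says nothing of binding.

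Libraries held 9402640 to 10579788 counts on genes in scrambled control and 6698956 to 7409479 in IFNγR1KO cells. A single count was worth 0.0966 to 0.109 CPM (counts relative to library size, with TMM factors, the unit used below) in scrambled control and 0.135 to 0.142 CPM in IFNγR1KO libraries. Control 3 and IFNγR1KO 12 stood apart from the other libraries of their groups, and their deviations from the group means correlated across 13642 genes (r = 0.67), so the fold changes, levels per kb, shares and S phase ratios of the 10 genes are also given without both. Genes with an adjusted p under 0.05 in edgeR's quasi-likelihood test were called, and those with an absolute log2 fold change above 1 as well were counted as DEGs. Ifngr1 averaged 15.9 ± 1.35 CPM in the control and 11.5 ± 0.0901 CPM in the IFNγR1KO libraries (SD, n = 3). It was not called by edgeR (log2 fold change -0.47, SE 0.16, adjusted p = 0.0729). The paper checked the receptor protein by flow cytometry. It reports that interferon gamma induced no phosphorylation of JAK2 in IFNγR1KO cells, which RNA levels do not measure. Of 10 melanocyte markers, 9 were tested, and edgeR called none (at unadjusted p under 0.05, 1 higher and 1 lower; DESeq2 called 1, lower); Ednrb was at 0. Their summed level was 32995 to 35944 CPM in scrambled control and 28849 to 33747 CPM in IFNγR1KO libraries. Of 16 markers of other cell types, 6 were at 0 in every library (Cd3e, Adgre1, Cdh5, Fshr, Prm1 and Tnp1), 12 had at most 3 counts in every library, and the 2 tested, Col1a1 and Gata4, were called higher. The summed level of these markers was 7.06 to 8.58 CPM in scrambled control and 14.4 to 20.8 CPM in IFNγR1KO libraries, and their part in the results below was not tested.

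Dnmt1, Uhrf1 and Hells, the genes that maintain methylation through replication, had less RNA in IFNγR1KO cells, with mean levels of 95.0 against 255 CPM for Uhrf1, 119 against 253 CPM for Dnmt1 and 44.8 against 89.5 CPM for Hells. Rhox5 had 22.6 times as much. The de novo enzymes Dnmt3a and Dnmt3b lay within the spread of the libraries, and Tet3 was modestly higher. Of the 9 genes tested, 2 were called higher and 3 lower, beside 7.73% and 7.62% of all genes tested (15.3% in either direction). DEGs were 1 of the 9 higher and 2 lower, beside 3.25% and 1.96% of all genes. The groups did not overlap for 2 higher and 3 lower genes, beside 16% and 16.6% of all genes. Nothing is read from these counts, because the genes were chosen on the same comparison. In bulk RNA, fewer cells with a transcript and less of it per cell cannot be told apart.

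**Figure D1:**
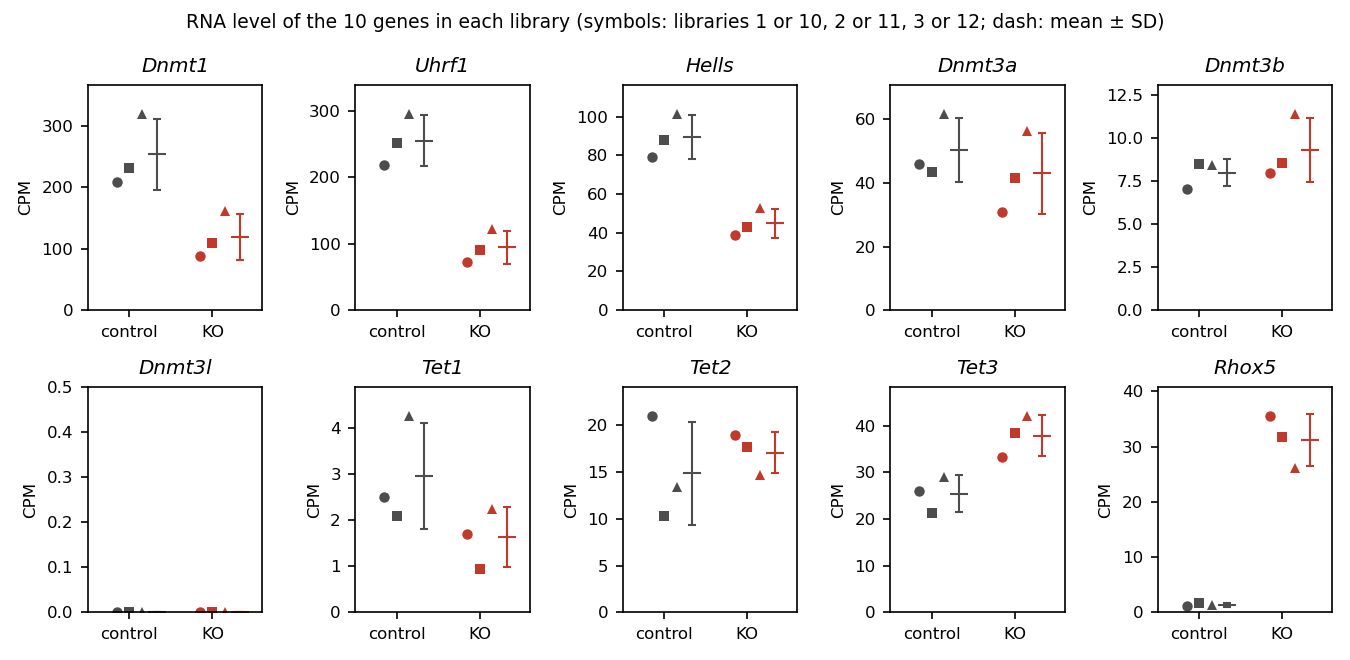
RNA level of the 10 genes in CPM (vertical axes, linear, each from 0) in the 3 scrambled control (grey) and 3 IFNγR1KO (red) libraries; circles, squares and triangles are the libraries, and the dash with bars is the mean ± SD. The groups do not overlap for Dnmt1, Uhrf1, Hells, Tet3 and Rhox5, and Dnmt3l is at 0 throughout.

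Dnmt1 (chr9:20907209-20959888 in GRCm38, minus strand), the maintenance methyltransferase, was at 209, 231 and 319 CPM in scrambled control and at 87.9, 109 and 161 CPM in IFNγR1KO libraries. Every IFNγR1KO library was below every control library, and the highest value of each group was in the library that stood apart. The means were 253 ± 58.1 and 119 ± 37.5 CPM (SD, n = 3), a log2 fold change of -1.09 (SE 0.22), and the gene was a DEG. Without both libraries that stood apart the log2 fold change was -1.16.

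Uhrf1 (chr17:56303321-56323486, plus strand), which brings Dnmt1 to newly replicated DNA, was at 219, 251 and 296 CPM in scrambled control and at 72.7, 90.5 and 122 CPM in IFNγR1KO libraries. The groups were well apart, with the lowest control library above the highest IFNγR1KO library by more than either group's SD. The means of 255 ± 38.6 and 95.0 ± 24.9 CPM (SD, n = 3) gave a log2 fold change of -1.42 (SE 0.19), the largest decrease among the 10 genes, and Uhrf1 was a DEG. It was -1.53 without both libraries that stood apart.

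Hells (chr19:38930915-38971051, plus strand), a remodeller of the SNF2 family needed for methylation of heterochromatin, was at 79.2, 87.9 and 101 CPM in scrambled control and at 38.6, 42.9 and 52.9 CPM in IFNγR1KO libraries. Again no IFNγR1KO library reached the control libraries. The means were 89.5 ± 11.2 and 44.8 ± 7.29 CPM (SD, n = 3), and the gene was called lower, with a log2 fold change of -0.998 (SE 0.16) that fell just short of the DEG limit. Without both libraries that stood apart it was -1.04. Leaving out each library in turn kept the calls of Dnmt1, Uhrf1 and Hells.

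Dnmt3a (chr12:3806007-3914443, plus strand), a de novo methyltransferase, was at 46.0, 43.4 and 61.7 CPM in scrambled control and at 31.0, 41.7 and 56.5 CPM in IFNγR1KO libraries. The groups overlapped, and the log2 fold change was -0.23 (SE 0.21, and -0.30 without both libraries that stood apart). Dnmt3b (chr2:153649450-153687730, plus strand), the other de novo enzyme, was at 7.06, 8.46 and 8.41 CPM in scrambled control and at 7.96, 8.53 and 11.4 CPM in IFNγR1KO libraries. These groups overlapped too, with a log2 fold change of 0.22 (SE 0.21, and 0.08 without both). Neither gene was called. Dnmt3l (chr10:78041947-78063622, plus strand), the cofactor of germ cells and embryonic stem cells, had no count in any of the 6 libraries, which allows up to 3 counts, or 0.290 to 0.426 CPM, in a library by counting error alone.

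Tet3 (chr6:83362373-83459084, minus strand), an enzyme that oxidises methylated cytosine, was at 25.9, 21.2 and 29.1 CPM in scrambled control and at 33.2, 38.3 and 42.0 CPM in IFNγR1KO libraries. The groups did not overlap, but the gap between 29.1 and 33.2 CPM was of the size of the SDs. Tet3 was called higher with means of 25.4 ± 3.97 and 37.9 ± 4.41 CPM (SD, n = 3) and a log2 fold change of 0.58 (SE 0.16), below the DEG limit. The call was lost without control 1, control 2 or IFNγR1KO 11, with log2 fold changes between 0.46 and 0.68 over the libraries left out, and it was kept at 0.60 without both libraries that stood apart.

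Tet2 (chr3:133463679-133545139, minus strand) was at 20.95, 10.2 and 13.4 CPM in scrambled control and at 18.9, 17.6 and 14.6 CPM in IFNγR1KO libraries. The 3 control libraries enclosed the IFNγR1KO libraries, and Tet2 was not called (log2 fold change 0.20, SE 0.24, and 0.23 without both libraries that stood apart). Tet1 (chr10:62804570-62908996, minus strand), the family member best known from embryonic stem cells, was the lowest of the family, at 2.50, 2.09 and 4.25 CPM in scrambled control and 1.70, 0.948 and 2.25 CPM in IFNγR1KO libraries. A single IFNγR1KO library overlapped the control range. The log2 fold change was -0.86 (-0.79 without both libraries that stood apart). Its SE of 0.39 was the largest among the 9 tested genes of the set. Tet1 was not called.

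Rhox5 (chrX:37804842-37808876, plus strand) had 10, 18 and 13 counts in scrambled control and 250, 235 and 186 counts in IFNγR1KO libraries. In CPM these are 1.09, 1.79 and 1.26 against 35.5, 31.8 and 26.1. All control libraries held a few counts, all IFNγR1KO libraries were at least 10 times higher, and the library that stood apart was the lowest of the IFNγR1KO group. The log2 fold change was 4.48 (SE 0.24, and 4.52 without both libraries that stood apart), and Rhox5 was a DEG. Leaving out each library in turn gave 4.34 to 4.71.

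Levels of different genes were compared as CPM per kb of exonic length. In scrambled control the order was led by Uhrf1 (59.9 ± 9.06 CPM per kb), Dnmt1 (34.3 ± 7.88) and Hells (12.4 ± 1.55), and no neighbours among these overlapped between libraries. Dnmt3a followed at 3.03 ± 0.597 CPM per kb. Rhox5 (1.83 ± 0.488), Dnmt3b (1.56 ± 0.156) and Tet3 (1.52 ± 0.238) came next, each overlapping its neighbour, then Tet2 (0.882 ± 0.326) and Tet1 (0.191 ± 0.0743).

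In IFNγR1KO libraries Rhox5, the fifth gene in scrambled control, headed the order at 41.3 ± 6.26 CPM per kb. Uhrf1 (22.3 ± 5.84) and Dnmt1 (16.2 ± 5.09) overlapped each other, and Hells was at 6.22 ± 1.01 CPM per kb. Dnmt3a (2.59 ± 0.771), Tet3 (2.27 ± 0.264) and Dnmt3b (1.82 ± 0.360) overlapped their neighbours, above Tet2 (1.01 ± 0.130) and Tet1 (0.106 ± 0.0423). With the length of the longest transcript in place of all exons, Rhox5 was the seventh gene in scrambled control and still headed the order in IFNγR1KO libraries. Without both libraries that stood apart the order of the means was kept in each group, and in IFNγR1KO libraries Uhrf1 (19.2 CPM per kb) no longer overlapped Dnmt1 (13.3), nor Tet3 (2.14) Dnmt3b (1.61).

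The make-up of the writers differed with these levels. Dnmt1 made up 88.1 ± 0.871% of the summed Dnmt RNA per kb in scrambled control and 78.4 ± 0.971% in IFNγR1KO libraries (SD, n = 3). The share of Dnmt3a was 7.82 ± 0.616% and 12.6 ± 0.586%, and that of Dnmt3b was 4.10 ± 0.646% and 9.04 ± 1.03%. No share overlapped between the groups, although the levels of Dnmt3a and Dnmt3b themselves did. The shares of a library add up to the whole, so a lower Dnmt1 by itself raises the shares of Dnmt3a and Dnmt3b. The lack of overlap in these shares is therefore no result apart from the level of Dnmt1. Among the erasers, Tet3 made up 59.2 ± 5.78% and 66.9 ± 4.79% of the Tet RNA per kb, and these ranges overlapped. Without both libraries that stood apart Dnmt1 made up 87.6% and 77.8%, Dnmt3a 7.91% and 12.7%, and Dnmt3b 4.45% and 9.49%, still with no overlap, and the ranges of Tet3 (57.8% and 64.7%) still overlapped.

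Genes of DNA replication were lower alongside the maintenance genes. All gene lists, here and in the other paragraphs, were chosen with earlier results of these data known. Their call counts, percentages and adjusted p-values therefore describe these libraries and are no independent tests. Of 23 S phase genes, 20 were called lower and none higher by edgeR (at unadjusted p under 0.05, 23 were lower and 0 higher; DESeq2 called 21 lower and 0 higher), with a median log2 fold change of -0.79, where the median of all genes tested was 0.00. Rrm2, a subunit of ribonucleotide reductase, fell from 677 ± 10.7 to 327 ± 13.0 CPM (log2 fold change -1.05, SE 0.14, adjusted p = 0.00039 from edgeR). Rrm1, its other subunit (log2 fold change -0.93, adjusted p = 0.00098), and Mcm5, a subunit of the replicative helicase (log2 fold change -0.89, adjusted p = 0.0012), fell as well. The summed level of the list was 5012 to 5307 CPM in scrambled control and 2760 to 3089 CPM in IFNγR1KO libraries. An E2F octamer of the kind shown in Dnmt1, Uhrf1 and Hells was present in 6 of the 19 S phase genes with a window (Cdc6, Mcm5, Mcm6, Mcm7, Pola1 and Rfc3), and in 1.78% of all 27025 genes with a window.

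Relative to the summed S phase level of the same library, a scale added after the data were seen, the maintenance genes differed less. That sum was itself lower in IFNγR1KO libraries, so a smaller difference of lower genes follows from the scale. Nothing about a cause is read from it. Dnmt1 stood at 4.86 ± 1.00% of that sum in scrambled control and 3.98 ± 1.09% in IFNγR1KO libraries (SD, n = 3), and the groups overlapped (log2 ratio -0.29) through IFNγR1KO 12 alone, at 5.22%. Hells stood at 1.72 ± 0.170% and 1.502 ± 0.185%, again with overlap (log2 ratio -0.20) through IFNγR1KO 12 alone, at 1.72%. Uhrf1, at 4.90 ± 0.613% and 3.17 ± 0.693%, did not overlap between the groups on this scale, with a log2 ratio of -0.63. Cdca7, the partner of Hells, did not overlap either, at 0.900 ± 0.0430% and 0.556 ± 0.0725% (log2 ratio -0.70). Without both libraries that stood apart, none of the 4 genes overlapped between the groups. Dnmt1 was then at 4.17 and 4.39% in scrambled control against 3.19 and 3.52% in IFNγR1KO libraries (log2 ratio -0.35), and Hells at 1.58 and 1.67% against 1.40 and 1.39% (log2 ratio -0.22). The log2 ratios were -0.72 for Uhrf1 and -0.68 for Cdca7. With so few libraries left, genes without a difference often stand apart too. The share of all genes that stand apart on this scale was not computed, so nothing is read from the lack of overlap. The part of cell cycling in the lower levels was not tested.

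**Figure D2:**
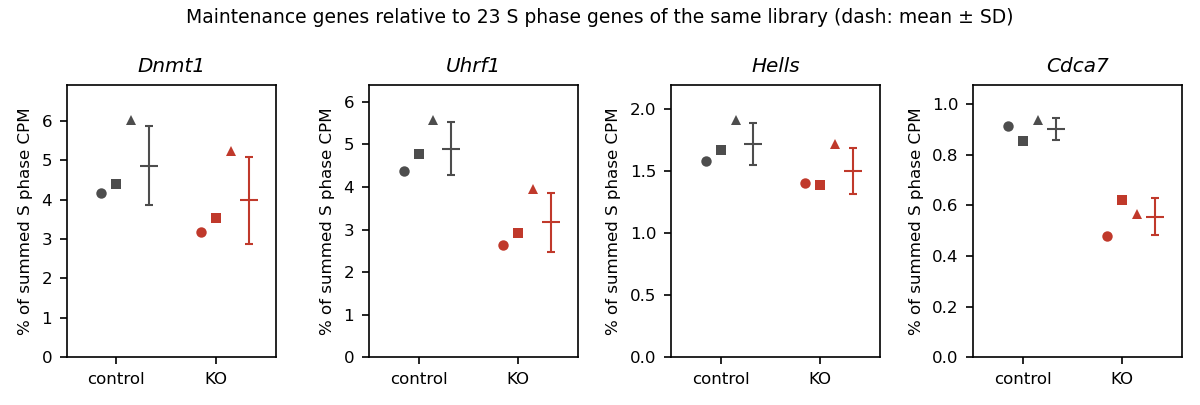
CPM of Dnmt1, Uhrf1, Hells and Cdca7 as a percent of the summed CPM of 23 S phase genes in the same library (vertical axes, linear, from 0) for 3 scrambled control (grey) and 3 IFNγR1KO (red) libraries, with mean ± SD. Over all libraries the groups overlap for Dnmt1 and Hells, through IFNγR1KO 12 (triangle), and stay apart for Uhrf1 and Cdca7. Without control 3 and IFNγR1KO 12 (triangles) none of the 4 genes overlaps, which is common with so few libraries. The share of all genes that stand apart on this scale was not computed.

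The partners of the methylation machinery included further genes that were lower. This list too was chosen with earlier results known, so its calls and adjusted p-values are given as description only. Of 22 genes that work with DNA methylation or build heterochromatin, 20 were tested, of which 5 were called lower and 1 higher. These are 25% and 5% of the list, beside 7.62% and 7.73% of all genes tested. The median log2 fold change of the list was -0.22. Cdca7, which recruits and activates Hells and is mutated with HELLS in human ICF syndrome, was at 45.7, 44.9 and 49.7 CPM in scrambled control and at 13.2, 19.2 and 17.4 CPM in IFNγR1KO libraries. All its IFNγR1KO libraries lay far below the control libraries, with a log2 fold change of -1.49 (SE 0.16, adjusted p = 0.00012 from edgeR). Its promoter window also held an E2F octamer, as did that of Cbx3, and no other gene of the list with a window did (2 of 19).

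Cdca7l, a paralogue of Cdca7, fell by 0.81 on the log2 scale (SE 0.16, adjusted p = 0.0045 from edgeR), and Suv39h1, a histone methyltransferase of pericentric heterochromatin, fell by 0.74 (SE 0.14, adjusted p = 0.0036). Exons of genes on the other strand overlap 22.4% of the exonic length of Cdca7l and 14.6% of that of Suv39h1, and the strand setting of the counting is not stated. The other called genes that fell were Cbx1 and Cbx3, which encode heterochromatin protein 1 isoforms and are named here after their values were seen. Zfp57, a zinc finger protein that protects methylation at imprinted loci, rose from 3.53 ± 1.23 to 9.18 ± 1.87 CPM (log2 fold change 1.39, SE 0.28, adjusted p = 0.0055).

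**Figure D3:**
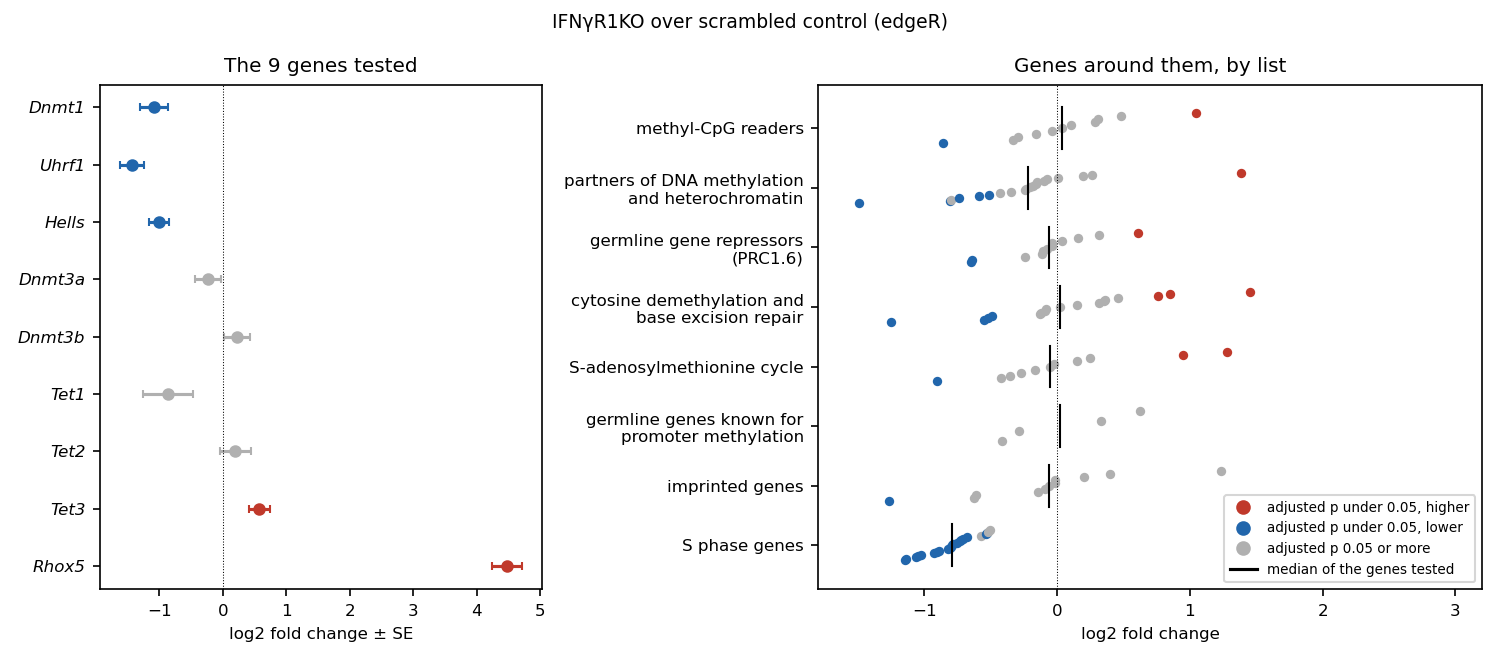
Left, log2 fold change of IFNγR1KO over scrambled control with its SE for the 9 genes tested; right, log2 fold change of each tested gene (point) in 8 lists, with the list's median as a bar. Red and blue points had an adjusted p under 0.05 in edgeR and were higher or lower, grey points did not; the S phase list has its median at -0.79 and the other lists lie between -0.22 and 0.04.

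Readers of methylated DNA stood near the median of all genes. Of 11 tested, 1 was called higher and 1 lower (9.09% each, beside 7.73% and 7.62% of all genes tested). The median log2 fold change was 0.04. Uhrf2, the paralogue of Uhrf1, fell from 59.4 ± 3.76 to 32.7 ± 3.38 CPM (log2 fold change -0.86, SE 0.14, adjusted p = 0.0016 from edgeR). Zbtb4, a zinc finger reader of methylated CpG, was called higher (log2 fold change 1.05, SE 0.32, adjusted p = 0.046), and DESeq2 did not call it. The call of Zbtb4 was also lost with libraries thinned to the smallest total (adjusted p = 0.067) and in 4 of the 6 fits that left out a library. With thinned libraries 1 other reader was called higher, and without control 1 there were 2 readers called higher.

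Of 12 genes of PRC1.6, the Polycomb complex that represses germline genes, 1 was called higher and 2 lower. These are 8.33% and 16.7% of the list, beside 7.73% and 7.62% of all genes tested. The list had a median of -0.06 on the log2 scale. E2f6, a DNA-binding subunit of the complex, fell from 113 ± 8.08 to 71.8 ± 4.15 CPM (log2 fold change -0.65, SE 0.13, adjusted p = 0.0055 from edgeR). L3mbtl2 was called lower (log2 fold change -0.64, SE 0.17, adjusted p = 0.024) and Ring1 higher (log2 fold change 0.61, SE 0.16, adjusted p = 0.022). The call of L3mbtl2, which shares 17.2% of its exonic length with a gene on the other strand, was lost in 3 of the 6 fits without a library, and that of Ring1 in 4.

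Among 17 tested genes of cytosine demethylation and base excision repair, 3 were called higher and 4 lower, with a median log2 fold change of 0.02. These are 17.6% and 23.5%, beside 7.73% and 7.62% of all genes tested. Ung, the uracil glycosylase that follows the replication fork, fell from 31.0 ± 2.32 to 13.0 ± 1.56 CPM (log2 fold change -1.25, SE 0.16, adjusted p = 0.00035 from edgeR). Idh1 (log2 fold change -0.52, adjusted p = 0.017), which makes the cofactor of Tet enzymes, was called lower. The call of Idh1 was lost in 3 of the 6 fits without a library. Parp1, named after its value was seen, was also called lower. Apobec1, a cytidine deaminase (log2 fold change 1.45, adjusted p = 0.0035), Neil2, a glycosylase (log2 fold change 0.85, adjusted p = 0.0034), and D2hgdh (log2 fold change 0.76, adjusted p = 0.013) were called higher. The call of D2hgdh was lost in 2 of the 6 fits without a library.

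The S-adenosylmethionine cycle provides the methyl groups, and 11 of its 16 genes were tested (median log2 fold change -0.05). Of these, 2 were called higher and 1 lower (18.2% and 9.09%, beside 7.73% and 7.62% of all genes tested). Mtap, which salvages methionine, fell from 301 ± 9.53 to 161 ± 8.17 CPM (log2 fold change -0.90, SE 0.13, adjusted p = 0.0008 from edgeR). Nnmt, which consumes S-adenosylmethionine by methylating nicotinamide, rose from 30.0 ± 7.31 to 72.8 ± 18.0 CPM (log2 fold change 1.28, SE 0.21, adjusted p = 0.002).

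Rhox5 was the only gene of its family with more than 1 count in any library. Of 42 genes with a Rhox symbol, 4 had a count, and Rhox2d, Rhox2f and Rhox2h each had a single count, in scrambled control libraries only. Reads that align to several places are set aside in the counting and made up 3.76 to 4.61% of a library's reads, so tandem copies of the cluster could have lost reads.

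No gene tested near Rhox5 was called with it. Of 16 genes tested within 1 Mb, edgeR called none (at unadjusted p under 0.05, 1 lower and 0 higher; DESeq2 called 0), and their log2 fold changes lay between -0.54 and 0.20, with a lowest adjusted p of 0.102. The nearest tested genes were Rnf113a1, Ndufa1 and Nkap at lower coordinates, the nearest at -612 kb, and Zbtb33, Tmem255a and Lamp2 at higher ones, the nearest at 381 kb. Across the X chromosome, 25 of 421 tested genes were called higher and 22 lower, beside 7.73% and 7.62% of all genes tested.

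**Figure D4:**
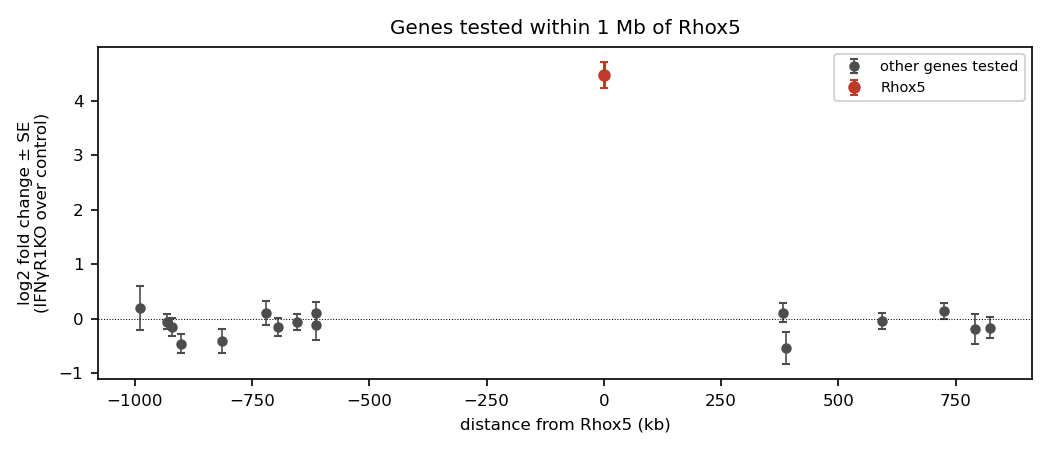
Log2 fold change of IFNγR1KO over scrambled control, with its SE, against distance from Rhox5 in kb for the genes tested within 1 Mb. Rhox5 (red) stands at 4.48 and the 16 others (grey) lie between -0.54 and 0.20.

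Most other germline genes known for promoter methylation were at or near 0 in both groups. Of 40 genes on that list, 24 had no count in any library and 35 had at most 3 counts in every library. The 4 that could be tested were Sycp3, Brdt, Fkbp6 and Xlr3a, and edgeR called none of them (at unadjusted p under 0.05, 1 higher and 1 lower; DESeq2 called 1, lower). Xlr3a, an X-linked gene of a lymphoid and germline family with near-identical copies, was at 32.4 ± 8.12 and 49.95 ± 13.8 CPM (log2 fold change 0.63, SE 0.22, adjusted p = 0.0779). Fkbp6, a meiotic immunophilin, was at 182 ± 26.5 and 137 ± 9.50 CPM (log2 fold change -0.42, SE 0.14, adjusted p = 0.0722). Both, like Sycp3 and Brdt, are named here after their values were seen.

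Of 30 imprinted genes, whose single active allele is kept by methylation, 12 had no count and 11 were tested. Mest was called lower, from 22.1 ± 4.04 to 9.20 ± 1.53 CPM (log2 fold change -1.26, SE 0.20, adjusted p = 0.0013 from edgeR), and exons on the other strand overlap 23.1% of it. None was called higher (at unadjusted p under 0.05, 1; DESeq2 called 0). The list's lower call made up 9.09% of its tested genes, beside 7.62% of all genes tested. The median of the list was -0.06 on the log2 scale.

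The genes whose level across the 6 libraries was most like that of Rhox5 were Tor3a (Pearson r of log2(CPM + 1) of 0.999), Chchd10 (0.999), Gbx1 (0.999), Serinc3 (0.998) and Nfxl1 (0.998). They lie on chromosomes 1, 10, 5, 2 and 5, none on the X chromosome. The 6 points fall into the 2 groups, which share their libraries with every comparison above, and 426 genes had an r above 0.95.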

How the data were processed

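RNA was sequenced from 3 scrambled control and 3 IFNγR1KO cultures, grouped by the sample labels. Per the labels and the study's methods, STAR 2.7.5a placed the paired-end reads on GRCm38 and HTSeq 0.11.2 counted them per gene. The counts were deposited by the authors as raw whole numbers, with no normalization or filter. The annotation release and strand setting are not given in the sources used here. Of 55335 identifiers, 55154 were found in GENCODE M21, 54587 with the same version. Reads on no gene took 46.9 to 47.7% of a library, were left out of library sizes; reads on genes took 46.0 to 47.0%.

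The counts were compared in R 4.3.3 with edgeR 4.0.16 (filterByExpr with min.count 10 and min.total.count 15, TMM, quasi-likelihood test, Benjamini-Hochberg adjustment over 13642 genes). The study's test, DESeq2's Wald test, was run in version 1.42.0 as an alternative. CPM used TMM-scaled library sizes.

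The 10 genes and all gene lists were chosen with earlier results of these data known. Genes named were the 10 genes, Ifngr1, for each list and direction the 3 called genes of lowest adjusted p with a mean of at least 1 CPM, the 3 nearest tested genes on each side of Rhox5, Rhox genes with a count, and the 5 genes most like Rhox5. Also named are cell type markers, S phase genes and partners with an E2F octamer, and genes marked as chosen after their values were seen. Some genes that this rule selects are not reported here. Promoter windows came from RefSeq (GRCm38.p6). Alternatives were DESeq2, RLE size factors, no filter on low counts, libraries thinned to the smallest total, an adjusted p under 0.01, transcript length, and leaving out each library. Leaving out both libraries that stood apart (also for levels, shares and the S phase scale), the S phase scale and the CpG-rich promoter background were added after the data were seen.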

Additional observations from a re-analysis of the deposited data

How the results depend on the processing

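The direction of all 9 tested genes of the set was kept under DESeq2, RLE size factors, no filter, thinning and without both libraries that stood apart. Leaving out a library turned Tet2, from -0.010 to 0.52, and no other of them; the calls of Dnmt1, Uhrf1, Hells and Rhox5 were kept in all these fits. The number of the 10 genes called higher was 1 to 2. Over all genes, 535 to 1372 were called higher and 457 to 1452 lower when a library was left out; the lowest counts came without control 2 (535 and 552), IFNγR1KO 10 (570 and 525) and IFNγR1KO 11 (571 and 457). At an adjusted p under 0.01, 454 were higher and 417 lower, and without both libraries that stood apart 1617 were lower. The labels pair no libraries across the groups (replicates 1 to 3 and 10 to 12). No paired fit, and no fit with a block for control 3 and IFNγR1KO 12, was run. Depth limits genes of few counts, such as Tet1, and Dnmt3l could not be tested.

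With DESeq2, 0 methyl-CpG readers were called higher, and lower calls numbered 2 in the S-adenosylmethionine cycle, 1 among germline genes, 2 among imprinted genes and 1 among melanocyte markers. Without the filter on low counts, these lower calls were 2 in the cycle, 3 imprinted and 1 melanocyte, and 1 germline gene was called higher. Without both libraries that stood apart, calls were 2 higher for PRC1.6, 5 higher for demethylation, 3 lower for the cycle, 1 higher and 1 lower for germline genes, 1 higher and 3 lower for imprinted genes, 1 higher and 2 lower for melanocyte markers and 1 lower among the neighbours of Rhox5, of which Nkap turned to 0.054. Leaving out a library gave 0 to 2 readers higher, 3 to 7 partners lower, 0 to 2 PRC1.6 genes higher and 1 to 2 lower, 2 to 5 demethylation genes higher and 1 to 3 lower, 0 to 1 germline genes in each direction, 1 to 3 imprinted genes lower, 0 to 1 melanocyte markers lower and 0 to 1 neighbours lower. It turned the log2 fold changes of the neighbours Nkap (-0.11 to 0.020), Ndufa1 (-0.10 to 0.32), Rnf113a1 (-0.29 to 0.13), Zbtb33 (-0.034 to 0.27) and Lamp2 (-0.13 to 0.070). The cause of these changes was not tested.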
